A study of Sus scrofa with 6 samples.

Results

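The genes described here are 8 transcription factors that set regional and enterocyte identity along the gut: GATA4, GATA5, GATA6, PDX1, CDX1, CDX2, HNF4A and HNF4G. They were taken by gene name from a deposited table of 24358 pig genes, and all 8 were present once. All 8 also passed the filter on low values, which kept the 12012 genes that reached 1 FPKM in 3 or more of the 6 libraries. The 8 names were chosen by gene name, with the expression values of these same libraries already known. Levels and fold changes of the 8 genes are therefore given as a description. FPKM is the count of a gene scaled to transcript length and library size, and CPM is the count per 1000000 counts of the library. For log2 CPM the library size was the sum over the tested genes, scaled by edgeR's TMM factors. Differences in log2 CPM can therefore depart from ratios of FPKM.

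Total RNA of the jejunum, which lies between duodenum and ileum, was sequenced from weaned piglets of the cross Large WhitexLandrace, described by the submitters as healthy. The 3 control libraries came from piglets with no transport and the 3 transport libraries from piglets after transport. The sources used here do not give age, sex, journey time or the place of sampling along the jejunum. Nor do the labels state that each sample is a separate animal, and the p-values then cover the spread among these samples, whether biological or technical.

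The GATA factors are zinc finger proteins that bind the short motif they are named after, and GATA4, GATA5 and GATA6 form the endodermal branch of the family. In mice GATA4 is made in the duodenum and jejunum and is absent from the distal ileum, and its loss from the jejunum turns on ileal genes for bile acid uptake. PDX1, CDX1 and CDX2 are homeobox factors: in mice PDX1 marks the duodenum, the antrum of the stomach and the pancreas, CDX2 sets intestinal against gastric identity, and CDX1 belongs to the same family. HNF4A and HNF4G are nuclear receptors that act together on genes of mature enterocytes, above all those of lipid handling.

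Library totals ran from 48208451 to 53739246 counts, and all 8 factors had 1084 or more counts in each library other than transport 3, so that their counting error is small there. Transport 3 stood apart, with a median correlation of log2 CPM with the other libraries of 0.818 against 0.888 to 0.930 for the rest. Its label is jejunum, but it carried ileal genes: FABP6, the ileal bile acid binding protein, had 6836 FPKM there and 2.83 to 13.8 in the other 5 libraries. SLC10A2, the ileal bile acid transporter, had 15.5 FPKM against 0.0567 to 1.25, and CUBN, the receptor for intrinsic factor with vitamin B12, had 19.0 against at most 0.0321. The 8 listed B and plasma cell genes summed to 826 FPKM in transport 3 and to 41.1 to 314 in the others. Not all of them were higher there. Of the 5 that were tested, transport 3 was the highest library for 3 and the lowest for 1, against 32.8% and 29.4% of all tested genes. It was at least 4-fold above the median of the others for 3 and at least 4-fold below it for 1. The 9 T and NK cell genes summed to 33.5 to 39.1 FPKM in controls and to 66.3, 73.3 and 133 in transports 1 to 3. All 9 had a positive log2 fold change. In 6 of them each transport library was higher than any control, against 6.25% of all tested genes. Of the 9, edgeR called 0, with 8 at an unadjusted p under 0.05 against 5.13% of tested genes. DESeq2 called 3, against 0.42% of the genes it tested. The 9 genes had a median log2 fold change of 1.66, or 1.14 without transport 3. The part of these immune genes in the levels of the factors was not tested. The 9 epithelial marker genes in the table summed to 805 FPKM there and to 1510 to 2307 in the others. In bulk tissue fewer cells of a type and less RNA per cell cannot be told apart. Control 2 also differed from the rest, with 73.2 FPKM summed over 8 smooth muscle genes against 1019 to 2801. Fold changes of the factors and list medians are therefore given with and without transport 3.

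GATA4 was close to absent from transport 3 and steady in the other libraries. Its FPKM was 44.4, 57.9 and 59.5 in controls 1 to 3 and 46.7, 51.7 and 0.906 in transports 1 to 3. The lowest of the other 5 libraries was thus 48.9 times the value of transport 3, and the groups overlapped, since transports 1 and 2 lay among the controls. The count behind the low value was 197, for a 95% counting interval of 0.784 to 1.04 FPKM by the exact Poisson limits, which cover counting error only. The gene, ENSSSCG00000022383, lies on the plus strand of chromosome 14 at 14858159 to 14937207 in the coordinates of the deposited table.

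GATA5 and GATA6 were also lowest in transport 3, but by much less. The FPKM of GATA5, which in mice is expressed in gut epithelium together with the other two, was 81.5, 62.0 and 41.5 in controls, then 58.0, 61.7 and 20.7 in transports 1 to 3. For GATA6, which in mice is found along the whole intestine including the ileum, the values were 27.1, 28.7 and 22.5 in controls, then 28.6, 20.7 and 11.1 in transports 1 to 3. The median of the other 5 libraries was 2.99 times transport 3 for GATA5 and 2.44 times for GATA6, against 57.1 times for GATA4. Control 2, with its low smooth muscle genes, lay inside the range of the other libraries without transport 3 for GATA5 and just above it for GATA6. GATA5 (ENSSSCG00000007538) lies on the minus strand of chromosome 17 at 61825698 to 61834267, and GATA6 (ENSSSCG00000003702) on the plus strand of chromosome 6 at 107282849 to 107314644.

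The make-up of the family therefore differed in transport 3. GATA4 made up 29.0% to 48.2% of the summed FPKM of the 3 endodermal GATA genes in the other libraries and 2.77% in transport 3. GATA5 made up 33.6% to 53.3% in those libraries and 63.2% in transport 3, and GATA6 15.5% to 21.5% and 34.02%. The summed level was 123 to 153 FPKM and 32.7 FPKM, respectively, so the higher shares of GATA5 and GATA6 came with lower levels.

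**Figure D1:**
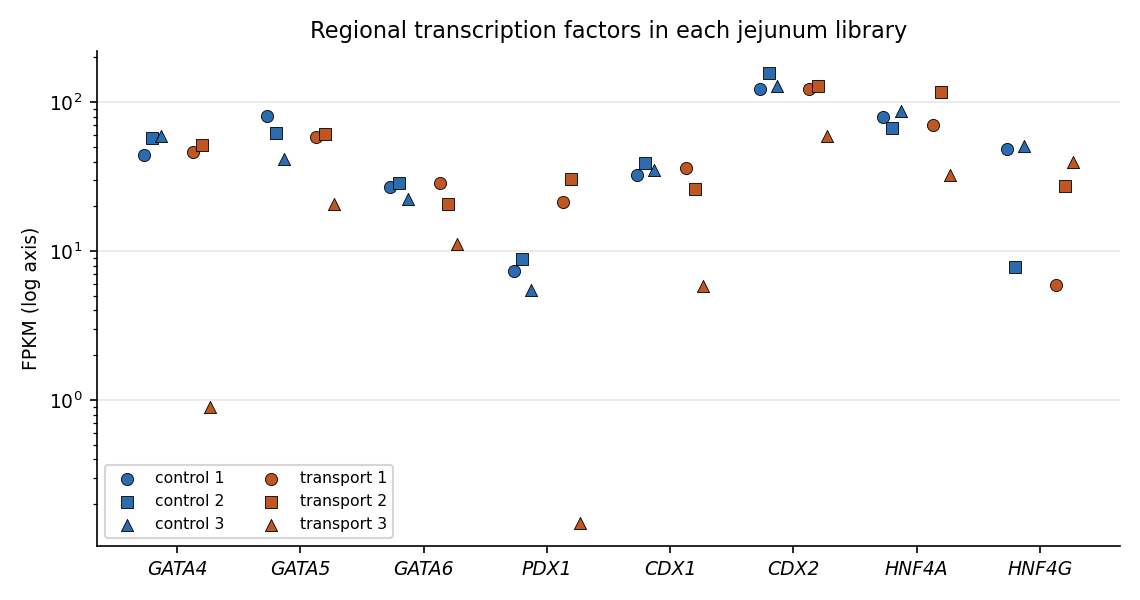
FPKM of the 8 factors in each library on a log axis, with controls in blue and transport libraries in orange and the marker shape giving the replicate number. Transport 3 lies far below the rest for GATA4 (0.906) and PDX1 (0.149), and HNF4G is low in control 2 (7.89) and transport 1 (5.97).

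PDX1 was the member with the widest spread. Its FPKM was 7.34, 8.81 and 5.51 in the controls, 21.4 in transport 1, 30.5 in transport 2 and 0.149 in transport 3. Transports 1 and 2 both lay above every control, and transport 3 lay below every other library, so the groups overlapped with the transport values on both sides of the controls. The highest library was 204 times the lowest. Transport 3 had 34 counts of PDX1, a 95% counting interval of 0.103 to 0.209 FPKM, and the other libraries had 1167 to 6466. Genes of the pancreas, where PDX1 is also made, were near 0: 6 of the 10 listed pancreas genes in the table, among them INS and PTF1A, had no count in any library, and the highest value of any was 1.05 FPKM.

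CDX1 and CDX2 differed from each other in transport 3. CDX2 was the most abundant of the 8 factors in all 6 libraries, at 123, 157 and 129 FPKM in controls, then 122, 128 and 59.1 in transports 1 to 3. For CDX1 the values were 32.4, 39.1 and 35.1 in controls, then 36.1, 26.0 and 5.87 in transports 1 to 3. Both were lowest in transport 3, where the median of the other libraries was 2.17 times the value for CDX2 and 5.98 times for CDX1. CDX1 made up 16.9% to 22.8% of the summed FPKM of the pair in the other libraries and 9.04% in transport 3.

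PDX1 and CDX2 are neighbours in the genome, both from the ParaHox cluster of homeobox genes. PDX1 (ENSSSCG00000035817) lies on the plus strand of chromosome 11 at 5303609 to 5310843, and CDX2 (ENSSSCG00000009317) on the minus strand at 5339722 to 5346081. The gap between them is 28878 bases and holds 1 other gene of the table, which has no symbol. Across this short distance their levels were not parallel: CDX2 exceeded PDX1 by 16.7, 17.8 and 23.5 times in the controls, by 5.71 and 4.20 times in transports 1 and 2, and by 396 times in transport 3. CDX1 (ENSSSCG00000014445) lies apart from them, on the plus strand of chromosome 2 at 151202918 to 151216988.

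HNF4A, the more abundant nuclear receptor of the pair in 5 of 6 libraries, had 79.9, 67.0 and 87.3 FPKM in controls, then 70.1, 117 and 32.7 in transports 1 to 3. Transport 2 was the highest and transport 3 the lowest, with the controls and transport 1 between them. Its gene, ENSSSCG00000007371, lies on the plus strand of chromosome 17 at 46783777 to 46847500.

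HNF4G followed neither the groups nor the pattern of the other 7 factors. The values were 48.6, 7.89 and 50.7 FPKM in controls, then 5.97, 27.6 and 39.5 in transports 1 to 3. Control 2 and transport 1 were low, the other 4 libraries lay between 27.6 and 50.7 FPKM, and transport 3 stood among the high ones. The low libraries still held 1940 and 1469 counts, so counting error is small. The 8 smooth muscle genes summed to 73.2 FPKM in control 2 and to 2405 in transport 1. A link between smooth muscle RNA and HNF4G was not tested. ENSSSCG00000034242 lies on the minus strand of chromosome 4 at 60505066 to 60637238, and none of the 8 genes overlaps another gene of the table.

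The balance of the nuclear receptors varied with HNF4G. HNF4G made up 37.8%, 10.5% and 36.7% of the summed FPKM of the pair in the controls and 7.86%, 19.1% and 54.7% after transport. Transport 3 was the library in which HNF4G exceeded HNF4A. The summed level was 72.3 FPKM in transport 3, near the 74.9 of control 2 and the 76.0 of transport 1.

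**Figure D2:**
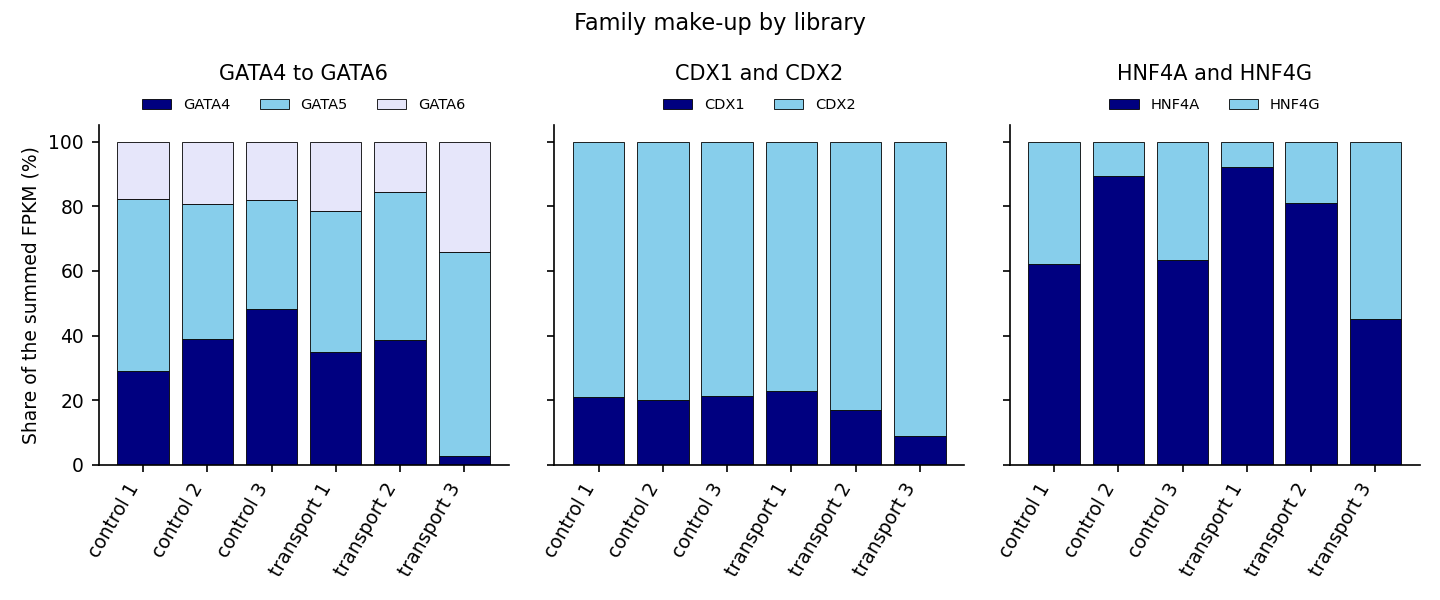
Share of each gene in the summed FPKM of its family, in percent, for the 6 libraries. GATA4 takes 2.77% of the GATA sum in transport 3, CDX1 9.04% of the CDX sum, and HNF4G ranges from 7.86% in transport 1 to 54.7% in transport 3.

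The study asked which genes differ after transport. Across the 12012 genes, edgeR's quasi-likelihood test with Benjamini-Hochberg adjustment called 2 genes higher and 0 lower, 0.0167% of those tested, and none of the 8 factors was among them. Without any single library other than transport 3, 0 genes were called higher. At an unadjusted p under 0.05, edgeR passed 616 genes, or 5.13%, and 0 of the 8. DESeq2 called 50 genes, 0.42% of those it tested, and again 0 of the 8. None of the factors was free of overlap between the groups, where 11.6% of tested genes were.

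Mean levels were lower after transport in 7 of the 8 and higher in PDX1, with a median log2 fold change of -0.44 against 0.07 for all tested genes, of which 43.1% were lower. Without transport 3 the median of the 8 was -0.14, with 6 of 8 lower, against 0.0046 and 49.6% of all tested genes. GATA4 had 53.9 ± 8.31 FPKM (SD, n = 3) in controls and 33.1 ± 28.0 after transport, a log2 fold change of -0.70 (standard error 1.11, adjusted p = 0.946, edgeR). Without transport 3 it was -0.16 (standard error 0.25), and with the replicate number as a block -1.53. PDX1 had 7.22 ± 1.65 and 17.3 ± 15.6 FPKM, a log2 fold change of 1.26 (standard error 1.32, adjusted p = 0.916, edgeR).

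For PDX1 the comparison turned on which transport library was left out. Without transport 2 its log2 fold change was 0.51 (standard error 1.52). Without transport 3 it was 1.81 (standard error 0.34), from 3 controls against transports 1 and 2. The unadjusted p was then 0.00180 and the adjusted p 0.676 in edgeR's test. In that fit 0.025% of tested genes passed the adjusted threshold and 5.05% an unadjusted p under 0.05, and 31 genes had a smaller p than PDX1. Groups without overlap were seen for 20.8% of genes, PDX1 among them. Transport 3 was set apart by the values of these same libraries and held the lowest PDX1. Leaving it out thus favours a small p and groups without overlap for PDX1, and both are given as description. With the replicate block and all libraries the log2 fold change was 0.13, and on log2(FPKM + 0.1) with limma it was -0.39.

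The other 6 factors showed no difference beyond the spread between libraries. GATA5 had 61.6 ± 20.0 FPKM in controls and 46.8 ± 22.7 after transport, and GATA6 26.1 ± 3.24 and 20.2 ± 8.77. CDX1 had 35.5 ± 3.37 and 22.7 ± 15.4, and CDX2 136 ± 18.0 and 103 ± 38.2. HNF4A had 78.1 ± 10.3 and 73.1 ± 42.0, and HNF4G 35.7 ± 24.1 and 24.4 ± 17.0. Their log2 fold changes ran from -0.67 to -0.11 with adjusted p-values of 0.906 to 0.985 (edgeR). Without transport 3 they ran from -1.04 for HNF4G to 0.25 for HNF4A, and the 5 other than HNF4G lay within 0.25 of 0 on the log2 scale.

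Transport 3 was the lowest of the 6 libraries for 7 of the 8 factors, where this held for 29.4% of all tested genes, and it was the highest for 0 of the 8, against 32.8% of tested genes. It lay at least 4-fold below the median of the other 5 for GATA4, PDX1 and CDX1, where 4.3% of tested genes did. On the log2 CPM scale the deviation was -6.06 for GATA4 and -6.01 for PDX1, and just 17 and 19 of the 12012 genes were lower by more. The deviation was -2.69 for CDX1, -1.83 for GATA5, -1.52 for HNF4A, -1.51 for GATA6 and -1.30 for CDX2. For HNF4G it was 0.27. These are values of 1 library and were not tested.

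**Figure D3:**
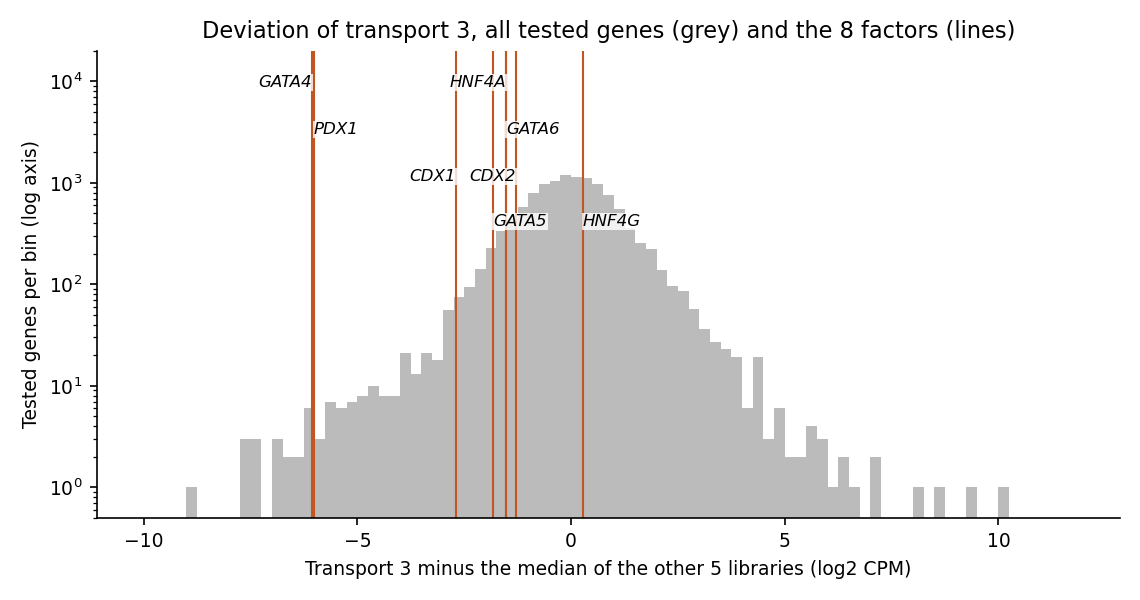
Number of tested genes (grey, log axis) by the difference between transport 3 and the median of the other 5 libraries in log2 CPM, with the 8 factors as vertical lines. GATA4 (-6.06) and PDX1 (-6.01) lie in the far left tail, CDX1 at -2.69, and HNF4G at 0.27 near the centre.

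Since all 8 factors are made in gut epithelium, each was also set against 9 epithelial marker genes of the same library, as log2 CPM of the factor minus the mean log2 CPM of the markers. The markers themselves had a median deviation of -1.74 in transport 3, close to the deviations of GATA5, GATA6, CDX2 and HNF4A, but they ran from -2.84 for KRT18 to -0.12 for VIL1 and 0.06 for CDH17. VIL1 and CDH17 were thus near the level of the other libraries. CDH17 and KRT20 also stand on the list of genes regulated by CDX2. On this scale those 4 factors in transport 3 lay inside the range of the other libraries, for example at -2.66 against -3.09 to -1.88 for GATA5. GATA4 remained outside, at -5.52 against -1.21 to -0.80, as did PDX1 at -7.98 against -4.32 to -1.66 and CDX1 at -5.14 against -4.24 to -3.47. HNF4G at 0.19 was above the range of -3.80 to -0.71. The part of the smaller epithelial signal and the larger B cell sum of transport 3 in the levels per library was not tested further.

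Between the groups, the values relative to epithelial markers were compared with exact two-sided permutation tests over the 6 libraries, which cannot give a p below 0.1. CDX2 reached that smallest value: the controls were at -0.70 ± 0.08 and the transport libraries at -0.47 ± 0.12 (SD, n = 3 each), higher in all 3 transport libraries than in any control (exact p = 0.1). The gap was small, with the highest control at -0.61 and the lowest transport library at -0.59, and relative to VIL1, CDH1 and EPCAM alone the exact p was 0.3. CDX2 itself had a log2 fold change of -0.44, and the markers a median of -0.55. For the other 7 factors the groups overlapped and the exact p-values ran from 0.2 to 1. For PDX1, transports 1 and 2 were at -1.87 and -1.66 and the controls at -3.68, -3.88 and -4.32, so those transport libraries stayed above the controls on this scale too. The 8 factors gave 8 such tests, and none could pass a threshold of 0.05.

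**Figure D4:**
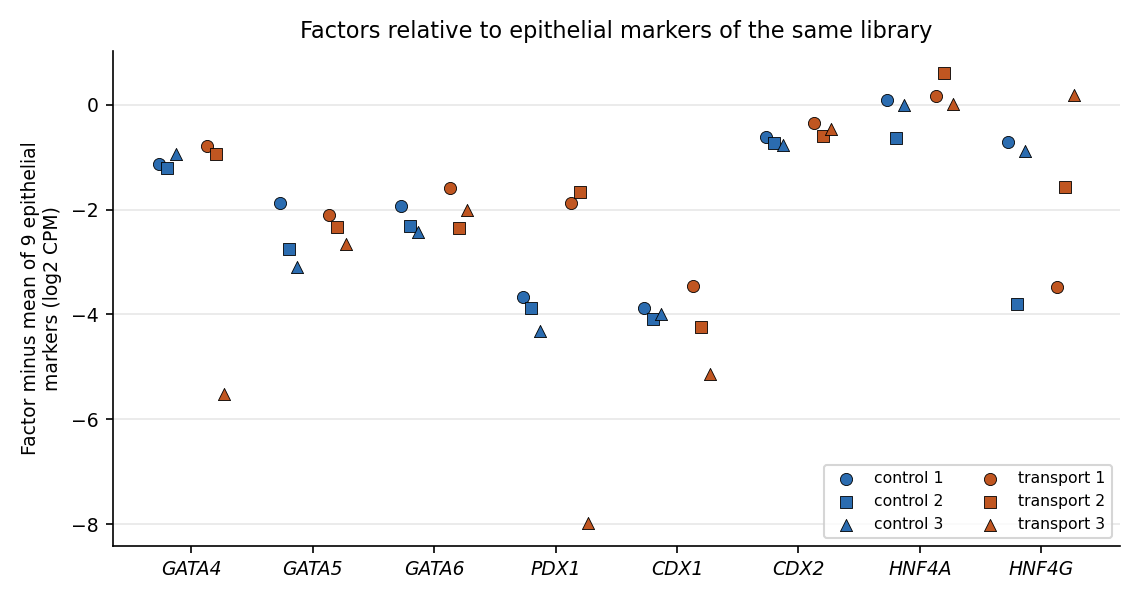
Log2 CPM of each factor minus the mean log2 CPM of 9 epithelial markers of the same library, controls in blue and transport libraries in orange. GATA4, PDX1 and CDX1 remain low in transport 3 on this scale, and GATA5, GATA6, CDX2 and HNF4A lie among the other libraries.

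Differences within pairs of related factors do not depend on library scaling. GATA4 exceeded GATA6 by 0.71, 1.01 and 1.41 on the log2 FPKM scale in the controls and by 0.70 and 1.32 in transports 1 and 2, while the difference in transport 3 was -3.62 (exact p = 0.4 between groups). CDX1 minus CDX2 was -1.92, -2.00 and -1.88 in controls, then -1.76, -2.30 and -3.33 in transports 1 to 3 (exact p = 0.4). HNF4G minus HNF4A was -0.72, -3.09 and -0.79 in controls, then -3.55, -2.08 and 0.27 in transports 1 to 3 (exact p = 0.9). In all 3 pairs the 5 libraries other than transport 3 lay on 1 side of 0, and for the CDX pair transport 3 did as well.

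Other members of the GATA family and their cofactors were few in this tissue. Of 6 listed genes 2 were tested, and 0 were called in either direction by edgeR (adjusted p of 0.910 and 0.964, 0 at an unadjusted p under 0.05) or by DESeq2. GATA3, a factor of lymphocytes, had 0.652 to 1.48 FPKM over all libraries, and GATA1 and GATA2, factors of blood cells, stayed below 1.1. ZFPM1, also called FOG1, a cofactor that binds GATA proteins and in mouse intestine takes part in repression by GATA4, had 23.8, 22.5 and 23.1 FPKM in controls, then 21.4, 18.1 and 2.43 in transports 1 to 3. It was thus 9.23 times lower in transport 3 than the median of the others, beside the near loss of GATA4.

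Among other epithelial transcription factors, 23 of 25 listed genes were tested. EdgeR called 0 higher and 0 lower, and DESeq2 called 0 in all. At an unadjusted p under 0.05 edgeR passed 2 of the 23, against 5.13% of all tested genes. The 23 had a median log2 fold change of -0.47 against 0.07 for all tested genes. Without transport 3 the median was -0.16, and 0 passed an unadjusted p under 0.05. Of the 23, transport 3 was the lowest library for 15 and the highest for 2, against 29.4% and 32.8% of all tested genes. The 4 of smallest p were PRDM1, NR1H4, NR5A2 and ARID3A, with adjusted p-values of 0.890 in edgeR. NR1H4, the bile acid receptor FXR, had 3.80, 7.49 and 6.08 FPKM in controls, then 5.65, 12.8 and 31.4 in transports 1 to 3, highest in transport 3. PRDM1, which represses the adult enterocyte programme in the young mouse gut, had 1.61, 2.18 and 1.42 and then 2.15, 4.66 and 4.85. The B and plasma cell genes (826 FPKM) and the T and NK cell genes (133 FPKM) also summed highest in transport 3. Their part in the level of PRDM1 was not tested. NR5A2, a nuclear receptor of the crypt, had 6.60 ± 1.39 and 4.30 ± 0.586 (SD, n = 3), and ARID3A 9.56 ± 2.91 and 6.02 ± 1.14. In 4 of the 23, NR5A2, ARID3A, CREB3L3 and VDR, each transport library was lower than any control, against 5.33% of all tested genes. In 0 of the 23 was each higher, against 6.25%. VDR had 80.2, 48.6 and 50.5 FPKM in controls, then 38.2, 37.5 and 9.46 in transports 1 to 3 (adjusted p = 0.890, edgeR).

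Of the listed factors of other gut regions, BARX1, HOXB13, HOXD13 and CDX4 had no count in any library, and SOX2, which marks the stomach, was at most 0.127 FPKM.

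Genes known as targets or markers of these regions were read beside the factors. Of the 13 tested proximal enterocyte genes, edgeR called 0, with 3 at an unadjusted p under 0.05 against 5.13% of all tested genes. DESeq2 called FABP2, 1 of the 13, against 0.42% of the genes it tested. The 13 had a median log2 fold change of -0.09 (0.30 without transport 3). Transport 3 was the lowest library for 10, against 29.4% of all tested genes. It was at least 4-fold below the median of the others for 8 of the 13, against 4.3%. SLC5A1 and CYBRD1 lay above that median in transport 3, at 144 and 52.2 FPKM against 95.1 and 45.8. NPC1L1 was near it, at 15.3 against 15.4. The 4 of smallest p were FABP2, APOC3, APOA4 and FABP1, which carry and package dietary fat, all with an adjusted p of 0.890 in edgeR. These 4 of the 13 were lower in each transport library than in any control, where 5.33% of all tested genes were, and their choice by p favours such genes. ADA, adenosine deaminase, had 217, 20.2 and 23.0 FPKM in controls, then 184, 466 and 6.80 in transports 1 to 3. BCO1, which cleaves carotenes, had 82.3, 2.01 and 4.55 and then 14.8, 42.7 and 0.469. Both were therefore high in control 1 and in transports 1 and 2, while PDX1 in control 1 was at the level of the other controls.

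The ileal list had 4 tested genes of 6 in the table, with 0 called by edgeR or DESeq2. Of the 4, 1 had an unadjusted p under 0.05 in edgeR's test, against 5.13% of all tested genes. The 4 had a median log2 fold change of 1.38. Without transport 3 the median was -0.33, with all 4 lower after transport in the mean and 0 at an unadjusted p under 0.05. FABP6 had counts of 80, 152, 408, 87 and 239 in the other 5 libraries and 213211 in transport 3. FGF19, the ileal hormone of bile acid feedback, had 24.5 FPKM in transport 3, 4.10 in control 2 and at most 0.313 in the other 4. SLC51A and SLC51B, the basolateral bile acid transporter, did not follow this pattern, with 31.4 and 52.3 FPKM in transport 3 against 6.54 to 29.5 and 64.9 to 168 in the others.

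**Figure D5:**
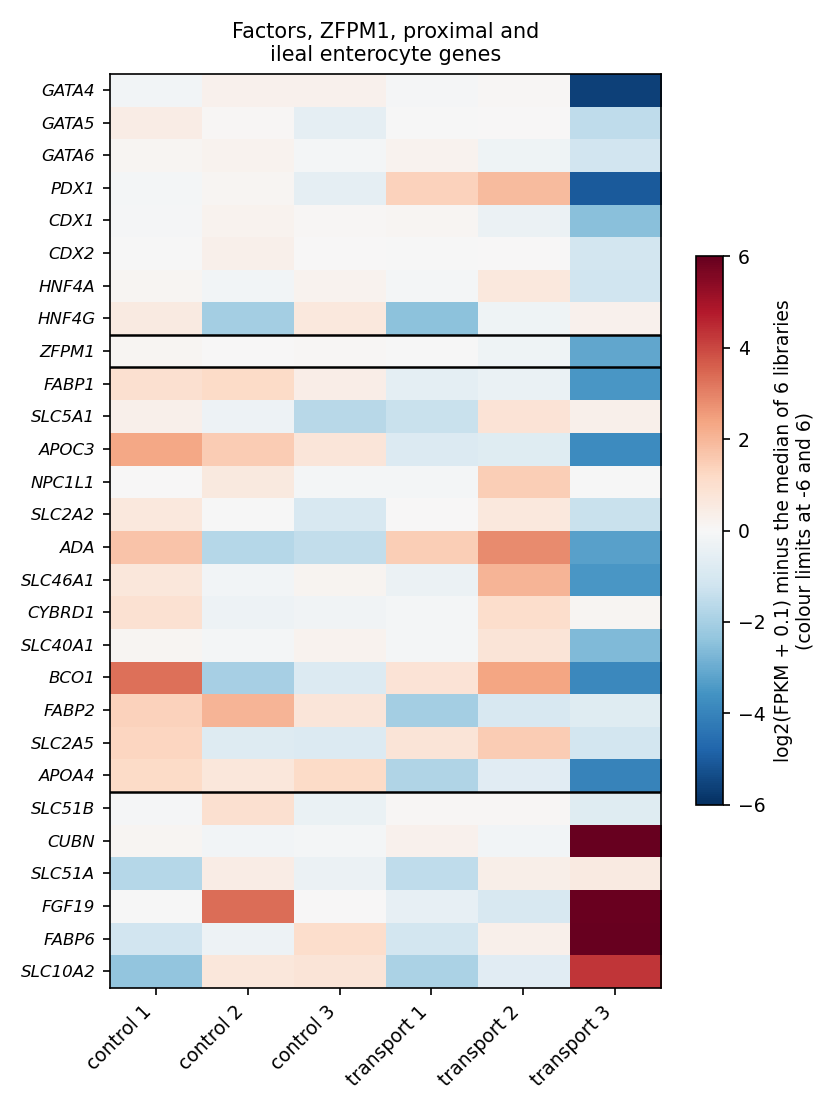
Log2(FPKM + 0.1) of each gene minus its median over the 6 libraries, for the 8 factors, ZFPM1, 13 proximal and 6 ileal enterocyte genes, with colour limits at -6 and 6. Transport 3 is low for GATA4, PDX1, ZFPM1 and most proximal genes and high for CUBN, FGF19, FABP6 and SLC10A2.

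Lists tied to HNF4 and CDX2 were read in the same way. Of 13 tested lipid genes bound by HNF4 factors, edgeR and DESeq2 called 0. In edgeR's test 2 had an unadjusted p under 0.05, against 5.13% of all tested genes. These 2, APOC3 and APOA4, are also on the proximal list, so they are not a separate result. Of the 13, 4 had a positive log2 fold change and 9 a negative one. The median log2 fold change was -0.23, or -0.28 without transport 3. APOA1, the main protein of high density lipoprotein, had 6038, 2240 and 1441 FPKM in controls, then 1067, 3116 and 373 in transports 1 to 3. MTTP, which loads lipid onto apolipoprotein B, had 135, 153 and 193 and then 53.4, 161 and 66.5. CREB3L3, a transcription factor of lipid metabolism, had 140, 292 and 172 FPKM in controls, then 129, 136 and 19.5 in transports 1 to 3. It is also on the list of other epithelial transcription factors. ABCG8, NPC1L1 and APOB went the other way, with log2 fold changes of 0.85, 0.42 and 0.36. ABCG8 had 16.7, 13.2 and 10.5 FPKM in controls, then 22.1, 41.5 and 10.6 in transports 1 to 3.

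Of 6 tested genes regulated by CDX2, edgeR called 1 higher, CLDN2, which encodes a pore-forming tight junction protein, and 0 lower. Of all tested genes, edgeR called 0.0167% higher. DESeq2 called 1 of the 6, against 0.42% of the genes it tested. The edgeR call of CLDN2 was lost when any 1 library other than transport 3 was left out. The median log2 fold change was 0.03, or 0.23 without transport 3. CLDN2 had 0.0513 FPKM or less in controls, then 72.3, 100.2 and 31.0 in transports 1 to 3, without overlap. Of all tested genes, 6.25% were higher after transport without overlap. SI, sucrase-isomaltase, had 51.4, 14.9 and 15.7 FPKM in controls, then 21.8, 99.0 and 99.9 in transports 1 to 3. On the log2 CPM scale transport 3 was the highest library for 0 of the 6 genes. CDH17, an intestinal cadherin, had 43.3, 55.0 and 40.3 FPKM and then 27.8, 89.7 and 53.4, and GPA33, a surface protein of intestinal epithelium, 72.4, 88.8 and 79.0 and then 67.7, 109 and 37.2.

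The genes with the pattern most like a factor were sought by the root mean square difference of centred log2 CPM over the 6 libraries, among 10914 tested genes with a symbol, for the 6 factors that spanned at least 2 on that scale. This is a description of 6 libraries. Nearest to GATA4 were SPINK1, a trypsin inhibitor (difference 0.33), PRDM16, a zinc finger transcription factor (0.39), and RNF186, a ubiquitin ligase (0.45). SPINK1 had 2703, 2409 and 2659 FPKM in controls, then 1811, 1467 and 34.3 in transports 1 to 3, and PRDM16 13.1, 13.7 and 11.5 and then 15.1, 8.45 and 0.136.

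PDX1 had less close neighbours. They were EPHX1, the microsomal epoxide hydrolase (difference 0.74), MLN, the hormone motilin (0.74), and ONECUT2, a transcription factor (0.76). MLN had 36.2, 11.5 and 8.57 FPKM in controls, then 33.6, 31.6 and 0.136 in transports 1 to 3. ONECUT2 had 255 to 409 counts in 5 libraries and 0 in transport 3. Like PDX1 all 3 were lowest in transport 3, but EPHX1 and MLN were high in control 1, where PDX1 was not.

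Nearest to HNF4G were RASSF8 (difference 0.40), TSPAN9, a tetraspanin (0.41), and FAM177A1 (0.50). RASSF8 had 1.59, 0.351 and 1.87 FPKM in controls, then 0.280, 0.561 and 1.56 in transports 1 to 3, and TSPAN9 5.23, 0.823 and 4.13 and then 0.445, 2.65 and 1.83. Each of the 3 was lowest in transport 1 and second lowest in control 2, the libraries in which HNF4G was low. For GATA5 the nearest gene was PCYT2, an enzyme of phosphatidylethanolamine synthesis (0.10), for CDX1 it was CCNJL (0.12), and for HNF4A it was NOXO1, a subunit of an epithelial NADPH oxidase (0.09).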

How the data were processed

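For each library 2 measures were given: per the file headers, the authors deposited a count per gene without normalization and an FPKM, in which a count of 0 is written as 0.0001. The sources used here do not give the aligner, counting tool, strand setting or genome build, and positions are copied from the deposited table. The column prefix of the transport group differs from the label, and columns were matched by group and replicate number. Of 6907 identifiers without a symbol, 951 were named from a gene name reference.

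Counts were tested with edgeR 4.0.16 (quasi-likelihood, TMM scaling) in R 4.3.3, over genes that reached 1 FPKM in 3 or more libraries. The code was checked on counts simulated with less spread between libraries than these data have and with no outlying library. That check therefore does not show which changes could be found in these libraries. Standard errors derive from the F statistic. DESeq2 1.42.0, limma 3.58.1 on log2(FPKM + 1) and log2(FPKM + 0.1), other filters and left-out libraries were alternatives. Log2 CPM has a prior count of 2. Within-library differences were compared by exact permutation tests (scipy 1.17.1). The common biological coefficient of variation was 0.473.

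The members and gene lists were chosen with earlier results of these data known. Naming rules took all 8 factors, up to 4 genes of smallest p per described list, defining markers, and 3 genes most like a factor. ADA, BCO1, APOA1, MTTP, CREB3L3, CDH17, GPA33, FGF19, SLC51A, SLC51B, ABCG8, NPC1L1, APOB, SLC5A1, CYBRD1 and VDR were chosen after their values were seen. Across genes, deviations from the group means of libraries of equal number had r = 0.217, 0.111 and 0.187. Libraries of unlike number had r from -0.261 to 0.101, close to the 0.111. This is weak ground for pairing, and the numbers were treated as pairs in an alternative fit only. What a number stands for is not stated in the labels. A listed gene of another gut region is not reported here.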

Additional observations from a re-analysis of the deposited data

How the results depend on the processing

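No factor passed an adjusted p of 0.05 under any of the 15 alternatives, and 114 of 120 values for single factors kept their direction. The others belonged to PDX1, HNF4A, GATA6 and CDX2. PDX1 went from 1.26 in the main fit to -0.39 with limma on log2(FPKM + 0.1). HNF4A ran from -0.69 to 0.25 with 1 library left out (0.25 without transport 3). It was 0.20 without control 2 and transport 3, and 0.21 without transport 3 with the replicate block. GATA6 was at 0.00079 and CDX2 at 0.014 without control 2 and transport 3. The block fit without transport 3 was chosen after seeing the data. With all libraries the replicate block called the same 2 genes, both higher. Without transport 3 the fit called 3 genes, and with the block 0. Genes called higher were 27 with DESeq2 (23 lower), 1 with either limma fit, with genes of mean FPKM 5 or more, and without control 2 and transport 3, and 0 without transport 3 in the block fit. With 1 library left out they ran from 0 to 2, and those called lower from 0 to 1. Leaving out 1 library moved the difference between groups from -1.29 to 0.63 for HNF4G minus HNF4A. Relative to epithelial markers it moved from -2.14 to 0.22 for GATA4, -0.052 to 0.55 for GATA5, -0.97 to 2.19 for PDX1, -0.70 to 0.13 for CDX1 and -0.82 to 1.11 for HNF4G. Without control 2 and transport 3 these differences were 0.16 for GATA4, 0.088 for CDX1 and -1.72 for HNF4G. The cause was not tested. PDX1 in transport 3, at 34 counts, is the value of a factor that depth limits most.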
